A study of Mus musculus with 24 samples.

Results

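The transcripts examined here encode the core of the insulin signalling cascade in skeletal muscle, namely Insr, Irs1, Irs2, Pik3r1, Pik3ca, Akt1, Akt2, Tbc1d1, Tbc1d4 and Grb10. A probe belonged to a gene when the scanner file named it so or when the current symbol of its accession was that gene, and no expression value entered this choice. Of the 10 genes, 9 had a probe on the array and 8 had a probe bright enough to test, and 18 of their 22 probes were bright enough, out of 15958 such probes among 41174 on the array. Irs2 had no probe. Gastrocnemius RNA of 24 male C57BL/6N mice was hybridized, 1 mouse per array, with no genetic modification named for any group. The mice were 3 months old at the start and were fed for 8 weeks. The control group received a high-fat diet based on corn oil with 35% lipids by weight (cHF, 8 mice). In a further group an n-3 LC-PUFA concentrate (46% DHA and 14% EPA) took the place of 15% of those lipids (cHF+F, 8 mice). In the cHF+ROSI group (8 mice) each kg of the control diet held 10 mg of rosiglitazone, a thiazolidinedione drug that activates PPARγ. All 3 groups were fasted for 10 hours, re-fed Chow overnight and killed the next morning, so every value below describes muscle of high-fat-fed, re-fed mice and none describes lean muscle.

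Insulin binds its receptor tyrosine kinase, which phosphorylates the IRS adaptor proteins, and these recruit phosphatidylinositol 3-kinase (PI3K) through its regulatory subunit. The lipid product of PI3K brings AKT to the membrane for activation, and AKT phosphorylates the Rab GTPase-activating proteins TBC1D4 and TBC1D1. This phosphorylation releases a brake on the movement of GLUT4 glucose transporters to the muscle surface, while the adaptor GRB10 binds the receptor and dampens the cascade. These steps are controlled largely by phosphorylation, which an RNA measurement does not see.

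Each value is a log2 ratio of the Cy5 signal of 1 mouse over the Cy3 signal of a common pool, which according to the labels also held mice given a higher dose of rosiglitazone. A ratio of 0 therefore means the level of the pool, and ratios of different probes do not rank the genes by abundance. Slide number and replicate number coincided on all 24 arrays, with 1 mouse of each diet on each of the 8 slides, in a fixed order, so place on the slide and diet cannot be told apart. From 30.4% to 61.3% of the spots of 23 arrays were well above background in Cy5, and 91.1% of those of cHF+ROSI replicate 4. Slides 1 to 3 gave dimmer arrays than slides 4 to 8. Markers of skeletal muscle fibres (9 genes, among them Acta1, Ckm and Myh4) had signals of 315 to 6069 times background, so the fibre markers of the labelled tissue were bright.

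No gene of the cascade differed between diets after correction for multiple tests. With the brightest probe standing for each gene, 0 of 8 genes were called in each of the 3 comparisons at an adjusted p under 0.05 in limma, where over all genes the share called was also 0%. At an unadjusted p under 0.05, Tbc1d1 alone was lower in the cHF+F than in the cHF mice (1 of 8 genes, against 7.41% of all 10891 genes, or 4.64% counting lower values only), no gene passed between the cHF+ROSI and the cHF mice (0 of 8, against 5.01%), and Akt1 alone was higher in the cHF+F than in the cHF+ROSI mice (1 of 8, against 4.83%, or 2.87% counting higher values only). Counts of 0 or 1 among 8 genes lie near these background shares. The median log2 difference over the 8 genes was -0.0014 for cHF+F versus cHF, -0.030 for cHF+ROSI versus cHF and -0.013 for cHF+F versus cHF+ROSI. The corresponding medians over all genes were -0.0045, -0.014 and 0.0100. Both first comparisons use the same 8 cHF mice, and in such whole-muscle RNA fewer cells of a type and less RNA per cell cannot be told apart.

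**Figure D1:**
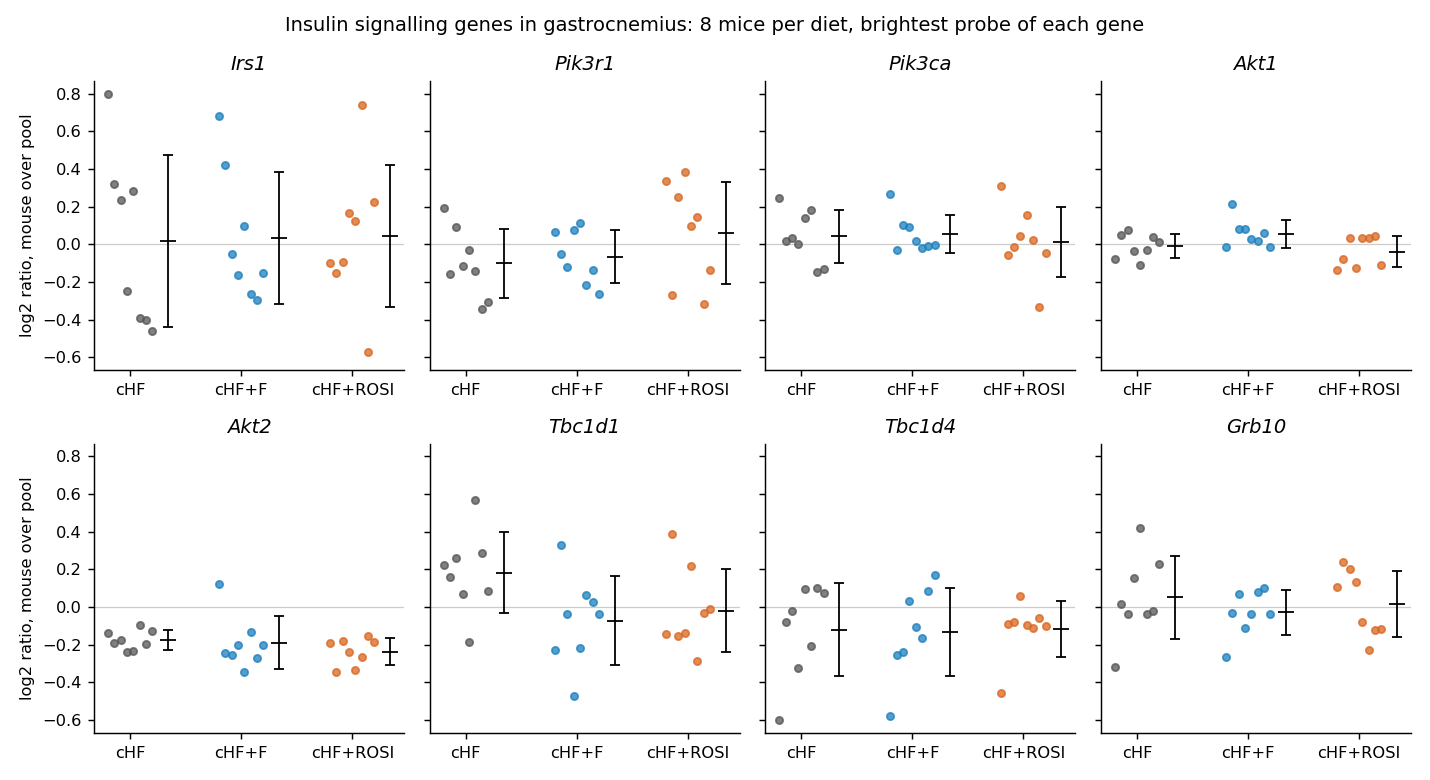
Log2 ratio of each mouse over the common pool for the brightest probe of the 8 tested genes. Points are single mice (8 per diet), placed from left to right by replicate number, and the bar beside them gives the mean and SD. In all panels the 3 diets overlap, and the points spread most for Irs1 and least for Akt1 and Akt2.

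Insr encodes the insulin receptor itself. Its single probe (chr8:3159473-3159532 on mouse build mm8, minus strand) had mean signals of only 1.87 times background in Cy5 and 1.60 times in Cy3. It was well above background in Cy5 on 3 of 8 cHF arrays, 4 of 8 cHF+F arrays and 3 of 8 cHF+ROSI arrays, so the receptor was not tested with the others. With the brightness filter removed, its log2 difference was 0.099 (SE 0.059) for cHF+F versus cHF and 0.13 (SE 0.059) for cHF+ROSI versus cHF. The latter had an unadjusted p of 0.0318 and an adjusted p of 0.417 in limma, at signals under 2 times background. A brighter probe lay in the same region at chr8:3151667-3151726 (mm8), named D630014A15Rik in the scanner file, a symbol that the reference table lists among the synonyms of Insr. It fell outside the rule and was chosen after its values were seen. Its log2 differences were -0.058 (SE 0.073, 95% CI -0.21 to 0.092) for cHF+F versus cHF and -0.027 (95% CI -0.18 to 0.12) for cHF+ROSI versus cHF, neither beyond the spread between mice.

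Irs1 encodes the main insulin receptor substrate of muscle, the docking protein that carries the signal from the receptor to PI3K. The log2 ratio of its brightest probe (chr1:82112141-82112200, mm8) ran from -0.46 to 0.80 (median -0.0075) in the cHF mice, from -0.29 to 0.68 (median -0.10) in the cHF+F mice and from -0.57 to 0.74 (median 0.018) in the cHF+ROSI mice. The 3 diets covered nearly the same range, and the means differed by 0.017 (SE 0.18) for cHF+F versus cHF and 0.026 for cHF+ROSI versus cHF, with unadjusted p of 0.925 and 0.886. By its brightest probe, Irs1 was the most variable gene of the cascade. The SD of this probe between mice of the same diet was 0.40, larger than that of 97.6% of all tested probes, whose median SD was 0.15. On slide 1 both the cHF mouse (0.80) and the cHF+F mouse (0.68) were the highest of their group, whereas among the cHF+ROSI mice the highest was that on slide 6 (0.74) and the lowest that on slide 7 (-0.57). The other probe of Irs1, 3.87 kb away, lay on the same side of its group mean as the first in 18 of 24 mice. Its SD was lower, at 0.18, larger than that of 69.3% of all tested probes. Its differences between diets were 0.013 for cHF+F versus cHF, 0.0066 for cHF+ROSI versus cHF and 0.0065 for cHF+F versus cHF+ROSI, each smaller than its SE of 0.085.

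Pik3r1 and Pik3ca encode the p85α regulatory and the p110α catalytic subunit of PI3K. The brightest of the 4 tested Pik3r1 probes (chr13:102786510-102786569, mm8) ran from -0.34 to 0.19 (median -0.13) in the cHF mice, from -0.26 to 0.11 (median -0.083) in the cHF+F mice and from -0.32 to 0.39 (median 0.12) in the cHF+ROSI mice. The highest values stood among the cHF+ROSI mice, 5 of which lay above 7 of the 8 cHF mice, but the groups overlapped over most of their range. The cHF+ROSI mean was higher than the cHF mean by 0.16 (SE 0.097, 95% CI -0.038 to 0.36), with an unadjusted p of 0.108, and it was the higher value on 7 of 8 slides. With the slide as a block in limma the unadjusted p was 0.0234 and the adjusted p 0.405. The 3 other Pik3r1 probes did not share that value, with cHF+ROSI minus cHF differences of -0.040, 0.065 and -0.015. For cHF+F versus cHF the 4 probes gave 0.036, -0.0018, -0.092 and -0.0080, and the smallest unadjusted p was 0.245. Between cHF+F and cHF+ROSI the third probe in order of brightness came nearest to the threshold, at -0.16 (SE 0.078) with an unadjusted p of 0.0532, and of 0.0415 (adjusted p 0.502) with the slide as a block in limma.

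Pik3ca varied less. Its brightest probe (chr3:32655899-32655958, mm8) ran from -0.15 to 0.24 (median 0.024) in the cHF mice, from -0.029 to 0.27 (median 0.0077) in the cHF+F mice and from -0.33 to 0.31 (median 0.0040) in the cHF+ROSI mice. These ranges lay inside or close to each other, and the differences were 0.0098 for cHF+F versus cHF, -0.032 for cHF+ROSI versus cHF and 0.042 for cHF+F versus cHF+ROSI, with an SE of 0.073 each. Its second probe gave 0.044 for cHF+F versus cHF, 0.0043 for cHF+ROSI versus cHF and 0.040 for cHF+F versus cHF+ROSI, likewise within its SE of 0.066. Slides accounted for 76.7% of the variance of the first probe within groups, the largest such share among the 18 probes, where the median over all tested probes was 55.4%. Such shares are not adjusted for the number of slides, so they exceed 0 even where slides do not differ.

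Akt1 and Akt2 encode the serine/threonine kinases at the centre of the cascade, AKT2 being the isoform most closely tied to glucose transport. Akt1 was measured by 10 replicate spots per array (chr12:113101676-113101735, mm8), which were averaged. Averaged in this way, Akt1 had the smallest spread of the cascade. Its log2 ratio ran from -0.11 to 0.074 (median -0.0069) in the cHF mice, from -0.014 to 0.21 (median 0.043) in the cHF+F mice and from -0.14 to 0.045 (median -0.022) in the cHF+ROSI mice. All 8 cHF+F values lay above the cHF+ROSI mean, although the ranges overlapped. The cHF+F mean exceeded the cHF+ROSI mean by 0.094 (SE 0.046, 95% CI 0.00059 to 0.19), a change of 6.76%, on 6 of 8 slides, with an unadjusted p of 0.0487 and an adjusted p of 1.00 in limma. Against cHF the differences were 0.066 for cHF+F (unadjusted p = 0.163) and -0.029 for cHF+ROSI (unadjusted p = 0.533). The SD of this mean of 10 spots between mice was 0.074, smaller than that of all but 1.13% of the tested probes. The 10 spots of 1 array had a median SD of 0.085 among themselves. Every other tested probe of the cascade had 1 spot per array, so this SD is not directly comparable with theirs. A second Akt1 probe was too dim to test, with signals of 1.96 times background in Cy3.

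The brightest Akt2 probe (chr7:27347600-27347659, mm8) ran from -0.24 to -0.093 (median -0.18) in the cHF mice, from -0.34 to 0.12 (median -0.22) in the cHF+F mice and from -0.34 to -0.15 (median -0.21) in the cHF+ROSI mice. All mice but cHF+F replicate 1 lay below the pool, in each diet alike. The differences were -0.015 for cHF+F versus cHF, -0.062 for cHF+ROSI versus cHF and 0.046 for cHF+F versus cHF+ROSI, with an SE of 0.053 and unadjusted p of 0.775, 0.258 and 0.393. The second Akt2 probe, 1.89 kb away, gave 0.081 for cHF+F versus cHF, 0.00078 for cHF+ROSI versus cHF and 0.080 for cHF+F versus cHF+ROSI. The cHF+F versus cHF and cHF+ROSI versus cHF values were opposite in sign to those of the brighter probe, and all of them were within the spread between mice. The probes lay on the same side of their group means in only 9 of 24 mice.

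Tbc1d1 encodes one of the Rab GTPase-activating proteins that hold GLUT4 vesicles inside the fibre. As processed here, though not under every alternative, it was the gene of the cascade with the largest difference between diets. Its 2 probes, 0.793 kb apart on chromosome 5 (chr5:64629070-64629129 and chr5:64629863-64629922, mm8, plus strand), were modestly bright, with mean signals of 7.29 in Cy5 and 3.52 in Cy3 times background for the first. The log2 ratio of this probe ran from -0.18 to 0.57 (median 0.19) in the cHF mice, from -0.47 to 0.33 (median -0.036) in the cHF+F mice and from -0.29 to 0.39 (median -0.082) in the cHF+ROSI mice. Of the cHF mice 7 of 8 lay above the pool, while 5 of 8 cHF+F mice and 6 of 8 cHF+ROSI mice lay below it, and the ranges overlapped. The cHF+F mean (-0.071 ± 0.24, SD) was below the cHF mean (0.18 ± 0.21) by a log2 difference of -0.25 (SE 0.11, 95% CI -0.47 to -0.037), a change of -16.2%. The unadjusted p was 0.0235 and the adjusted p 0.640 in limma, and the cHF+F mouse was the lower one on 7 of 8 slides. The second probe, on the same arrays and the same gene and therefore no independent sample, ran from -0.12 to 0.53 (median 0.14) in the cHF mice, from -0.48 to 0.086 (median -0.090) in the cHF+F mice and from -0.26 to 0.21 (median 0.0046) in the cHF+ROSI mice. Its cHF+F minus cHF difference was -0.24 (SE 0.087, unadjusted p = 0.00957, adjusted p = 0.521), again lower on 7 of 8 slides, and the probes lay on the same side of their group means in 18 of 24 mice.

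RefSeq promoter windows, from 250 bases before to 50 after an annotated start (build GRCm38.p6), were matched for 9 of the 10 genes, 16 windows in all. Tbc1d1 is shown because it was the gene with the largest difference as processed here, and it has 2 such starts. Capitals mark the E box CANNTG, the site that bHLH factors read, which was searched on both strands together with AGGTCA, the core of the sites that PPARs bind, and the TATA box TATAAA.
Tbc1d1, chr5:64160010-64160309, plus strand: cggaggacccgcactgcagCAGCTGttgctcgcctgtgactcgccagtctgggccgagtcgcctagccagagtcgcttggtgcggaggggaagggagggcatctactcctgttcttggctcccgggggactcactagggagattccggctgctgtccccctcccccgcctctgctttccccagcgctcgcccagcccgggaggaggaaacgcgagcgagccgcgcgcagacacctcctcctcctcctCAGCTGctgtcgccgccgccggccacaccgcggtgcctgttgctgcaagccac
Tbc1d1, chr5:64230107-64230406, plus strand: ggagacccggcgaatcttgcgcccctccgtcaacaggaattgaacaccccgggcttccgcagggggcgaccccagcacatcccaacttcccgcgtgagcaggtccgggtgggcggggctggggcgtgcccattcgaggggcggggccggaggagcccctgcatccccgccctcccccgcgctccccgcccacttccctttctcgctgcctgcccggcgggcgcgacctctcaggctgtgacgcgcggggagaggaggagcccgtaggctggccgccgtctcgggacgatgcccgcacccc
The upstream window held 2 E boxes, and the downstream one held none of the 3 motifs. An E box stood in 72.3% of all 32851 promoter windows of this length, an AGGTCA in 16.3% and a TATAAA in 13.6%. Among the members, AGGTCA was found in 1 of the 16 windows, at Akt1. The GC content of the windows shown was 69.3% and 74.0%, where the median of all windows was 52.7%.

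In the cHF+ROSI mice the Tbc1d1 differences from cHF were -0.20 (SE 0.11, unadjusted p = 0.0665) and -0.15 (SE 0.087, unadjusted p = 0.102) for the brighter and the dimmer probe. They were lower on 6 and 5 of 8 slides. The direct difference between cHF+F and cHF+ROSI was -0.052 (95% CI -0.27 to 0.17) and -0.096 (95% CI -0.28 to 0.083), so that a lower level in either diet than in the other could not be shown at this spread. With the slide as a block the cHF+F versus cHF difference had an unadjusted p of 0.0167 and an adjusted p of 0.278.

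**Figure D2:**
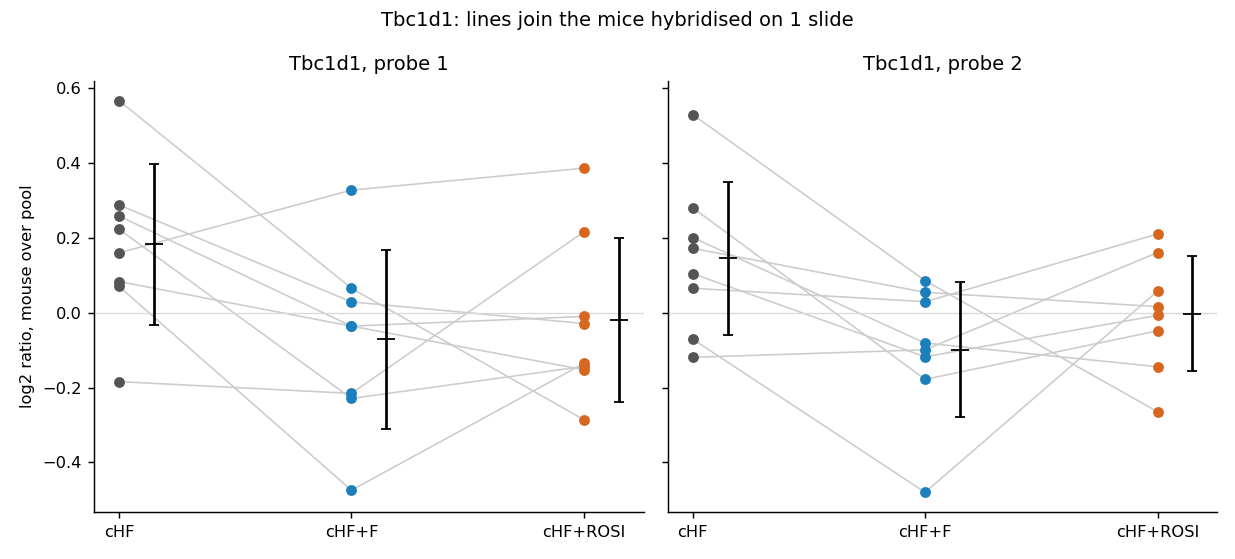
Log2 ratio of Tbc1d1 over the common pool for its brighter (left) and dimmer (right) probe in the 3 diets. Points are mice, grey lines join the 3 mice hybridized on the same slide, and the bars give the mean and SD of 8 mice. From cHF to cHF+F the line goes down on 7 of 8 slides for each probe.

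The size of the Tbc1d1 difference varied with the processing. The Cy3 channel, which carried the pool, gave a signal of the brighter probe that was 0.26 higher on the cHF+F than on the cHF arrays (log2, unadjusted p = 0.119). The Cy5 signal alone, quantile-normalized between arrays, differed by -0.028 (SE 0.19). For the dimmer probe the corresponding values were 0.10 in Cy3 (unadjusted p = 0.480) and -0.11 (SE 0.21) in Cy5. Using Cy5 alone leaves out Cy3 and also replaces the loess normalization, and these changes cannot be told apart. Centring each array on its median in place of the intensity-dependent loess curve gave -0.090 (SE 0.16) and -0.21 (SE 0.14) for the brighter and the dimmer probe. The processed signals of the scanner software, to which no offset was added here, gave larger differences of -0.31 (SE 0.14, unadjusted p = 0.0341) and -0.42 (SE 0.15, unadjusted p = 0.00992), the latter with an adjusted p of 0.420 in limma. With them the dimmer probe was also at -0.33 (SE 0.15, unadjusted p = 0.0396) for cHF+ROSI versus cHF. In the table of normalized values deposited by the authors the differences were -0.21 (SE 0.13, unadjusted p = 0.119) and -0.33 (SE 0.12, unadjusted p = 0.0131). The direction was the same under all 15 alternatives for the brighter probe and all 13 for the dimmer one, and no adjusted p was under 0.252 for either. Another brightness filter, the slide as a block or the t-test leaves the estimate itself unchanged, so these alternatives could not alter its direction. The cHF+F versus cHF count of 1 gene became 0 without cHF replicate 6, the highest Tbc1d1 value of that group, and without cHF+F replicate 4, the lowest of its group.

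**Figure D3:**
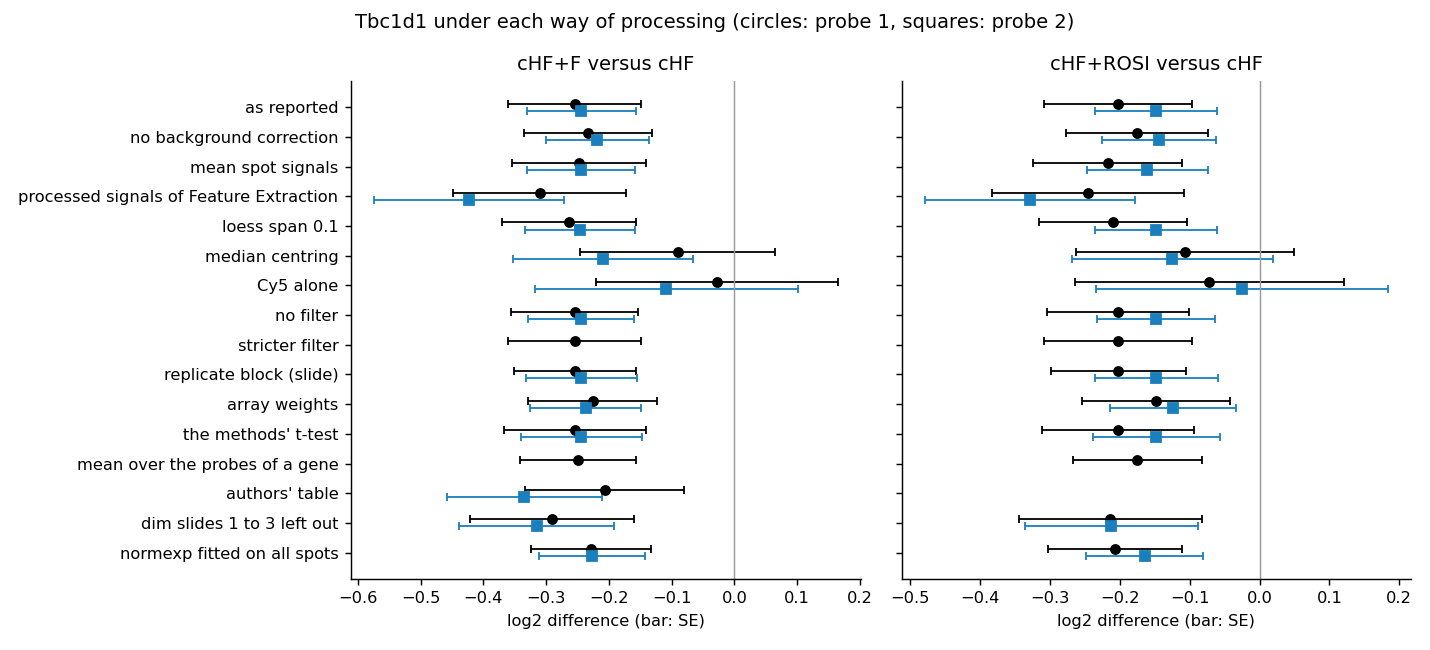
Log2 difference of Tbc1d1 between diets under each way of processing, with the brighter probe as black circles and the dimmer as blue squares, and bars giving the SE. All estimates lie left of 0, and the bars that cross 0 belong to the Cy5 signal alone or to median centring.

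Slow and fast fibres, vessels and other cells share the gastrocnemius, and some of their markers differed in the same direction as Tbc1d1. The mean log2 ratio of 5 slow fibre genes (Myh7, Tnnc1, Tnni1, Tnnt1 and Myl2) ran from -0.41 to 0.84 (median 0.070) in the cHF mice, from -1.48 to 0.41 (median -0.47) in the cHF+F mice and from -1.61 to 0.95 (median -0.20) in the cHF+ROSI mice. All 5 were lower in the cHF+F than in the cHF mice, 3 of them at an unadjusted p under 0.05, with Tnni1 at -0.81 (SE 0.30) and Myh7 at -0.80 (SE 0.38). The mean of 5 endothelial genes (Pecam1, Cdh5, Kdr, Tie1 and Cldn5) ran from -0.20 to 0.28 (median 0.12) in the cHF mice, from -0.46 to 0.028 (median -0.092) in the cHF+F mice and from -0.26 to 0.073 (median -0.17) in the cHF+ROSI mice, with Cldn5, a tight junction protein, at -0.66 (SE 0.14) relative to cHF with n-3 LC-PUFA and -0.48 with rosiglitazone. All 5 were lower than cHF in either diet, at an unadjusted p under 0.05 for 2 with n-3 LC-PUFA and 3 with rosiglitazone. The 5 macrophage genes were lower in the cHF+F mice in all 5 cases, 1 of them (Cd14) at an unadjusted p under 0.05, and the 7 adipocyte genes in 5 of 7, none at that threshold. In the cHF+ROSI mice 5 macrophage and 5 adipocyte genes were lower, none at that threshold. Both tested blood genes were lower than cHF in either diet, neither at that threshold. Their median log2 difference was -0.025 for cHF+F versus cHF and -0.42 for cHF+ROSI versus cHF. Of the 9 skeletal muscle markers, 6 were higher and 3 lower for cHF+F versus cHF, and 4 higher and 5 lower for cHF+ROSI versus cHF. The mean of 4 liver genes (Alb, Apoa1, Apoa2 and Mup1) ran from -2.30 to -0.64 (median -0.89) in the cHF mice, from -1.62 to 0.74 (median -0.69) in the cHF+F mice and from -2.30 to 1.48 (median 0.11) in the cHF+ROSI mice, all 4 being higher than cHF in both diets and 2 of them, Apoa2 (0.77, SE 0.34) and Mup1 (1.53, SE 0.69), at an unadjusted p under 0.05 in the cHF+ROSI mice. The study had already listed Tnni1, Myh7, Tnnc1 and Cldn5 (n-3 LC-PUFA) and Mup1 (rosiglitazone) as changed on these same arrays. Over all genes, 7.41% for cHF+F versus cHF and 5.01% for cHF+ROSI versus cHF had an unadjusted p under 0.05 in limma. No defining marker of these lists was called after correction, and their part in the Tbc1d1 difference was not tested.

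Tbc1d4 (AS160) is the close relative of Tbc1d1 and the AKT substrate first linked to insulin-stimulated glucose uptake. Its brightest probe (chr14:100364387-100364446, mm8) ran from -0.60 to 0.10 (median -0.051) in the cHF mice, from -0.58 to 0.17 (median -0.14) in the cHF+F mice and from -0.45 to 0.059 (median -0.093) in the cHF+ROSI mice. The mice of slide 1 were the lowest of all 3 groups, and otherwise the diets were interleaved. The differences were -0.013 for cHF+F versus cHF, 0.0038 for cHF+ROSI versus cHF and -0.017 for cHF+F versus cHF+ROSI, with an SE of 0.10, and 76.5% of the variance within groups lay between slides. The other tested probes, 2.17 and 36.8 kb away, went in opposite directions. For cHF+F versus cHF they gave -0.11 and 0.11, and for cHF+ROSI versus cHF -0.14 and 0.071, with no unadjusted p under 0.112. With the slide as a block in limma, the unadjusted p was 0.0320 (adjusted p 0.443) for the first of them in cHF+ROSI versus cHF and 0.0430 (adjusted p 0.382) for the other in cHF+F versus cHF. The pool signal of the first of these was higher on the cHF+F arrays by 0.18 (unadjusted p = 0.0109) and on the cHF+ROSI arrays by 0.16 (unadjusted p = 0.0256) than on the cHF arrays. Over all probes 0.501% and 1.85% passed that threshold in Cy3. The dimmest Tbc1d4 probe was well above background on 1 of 24 arrays and was not tested.

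Grb10 encodes the adaptor that binds the activated insulin receptor and inhibits it, and is an imprinted gene. Its brightest probe (chr11:11830965-11831024, mm8) ran from -0.32 to 0.42 (median -0.0016) in the cHF mice, from -0.26 to 0.10 (median -0.032) in the cHF+F mice and from -0.23 to 0.24 (median 0.011) in the cHF+ROSI mice. The cHF mice included both the highest and the lowest of the 24 values, and those of the other diets lay between them. The differences were -0.079 for cHF+F versus cHF, -0.034 for cHF+ROSI versus cHF and -0.045 for cHF+F versus cHF+ROSI, all below the SE of 0.085. With slides 1 to 3 left out, which was chosen after seeing the data, the cHF+ROSI versus cHF difference was -0.23 (SE 0.087), with an unadjusted p of 0.0165 and an adjusted p of 0.453. The second probe gave -0.020 for cHF+F versus cHF, 0.0089 for cHF+ROSI versus cHF and -0.029 for cHF+F versus cHF+ROSI, and the remaining one was too dim to test.

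How large a difference could have been missed follows from the 95% confidence intervals, taken gene by gene without correction, and it varied with the processing. As processed here, the interval lay within a 1.5-fold change (a log2 difference of 0.58) in either direction for all 18 probes in each comparison, and no estimate reached 1.2-fold. Within a 1.2-fold change lay the intervals of 6 of 8 genes for cHF+F versus cHF, 5 for cHF+ROSI versus cHF and 5 for cHF+F versus cHF+ROSI. By the brightest probe, the exceptions were Irs1 and Tbc1d1 in the first comparison, and Irs1, Pik3r1 and Tbc1d1 in the others. A dimmer Tbc1d4 probe also had intervals past that bound, reaching -0.28 for cHF+F versus cHF and -0.31 for cHF+ROSI versus cHF. Counted by probe, 77.8%, 72.2% and 72.2% of the intervals of the 18 probes lay within 1.2-fold, against 72.4%, 75.1% and 75.2% over all tested probes.

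The 1.5-fold bound held without any 1 array but not under 4 of the alternatives. With the processed signals of the scanner software, 14, 15 and 17 of the 18 intervals lay within it in the 3 comparisons, and that of the dimmer Tbc1d1 probe reached -0.73 for cHF+F versus cHF. With Cy5 alone 13, 12 and 13 did. In the authors' table the dimmer Tbc1d1 probe was the exception, with an interval that reached -0.59. With slides 1 to 3 left out it was the brightest Irs1 probe, whose cHF+ROSI minus cHF difference was then 0.38 (SE 0.18, 95% CI -0.0044 to 0.77, unadjusted p = 0.0524), against 0.026 with all slides. Estimates past 1.2-fold appeared for Tbc1d1 with the processed signals, a loess span of 0.1, the authors' table or slides 1 to 3 left out, and without some single arrays. They also appeared for Tbc1d4 with the processed signals, for Irs1 with Cy5 alone or slides 1 to 3 left out, and for Grb10 with Cy5 alone. The offset of 50 units added to each corrected signal draws the ratios of dim probes, such as those of Tbc1d1 and Tbc1d4, toward 0.

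**Figure D4:**
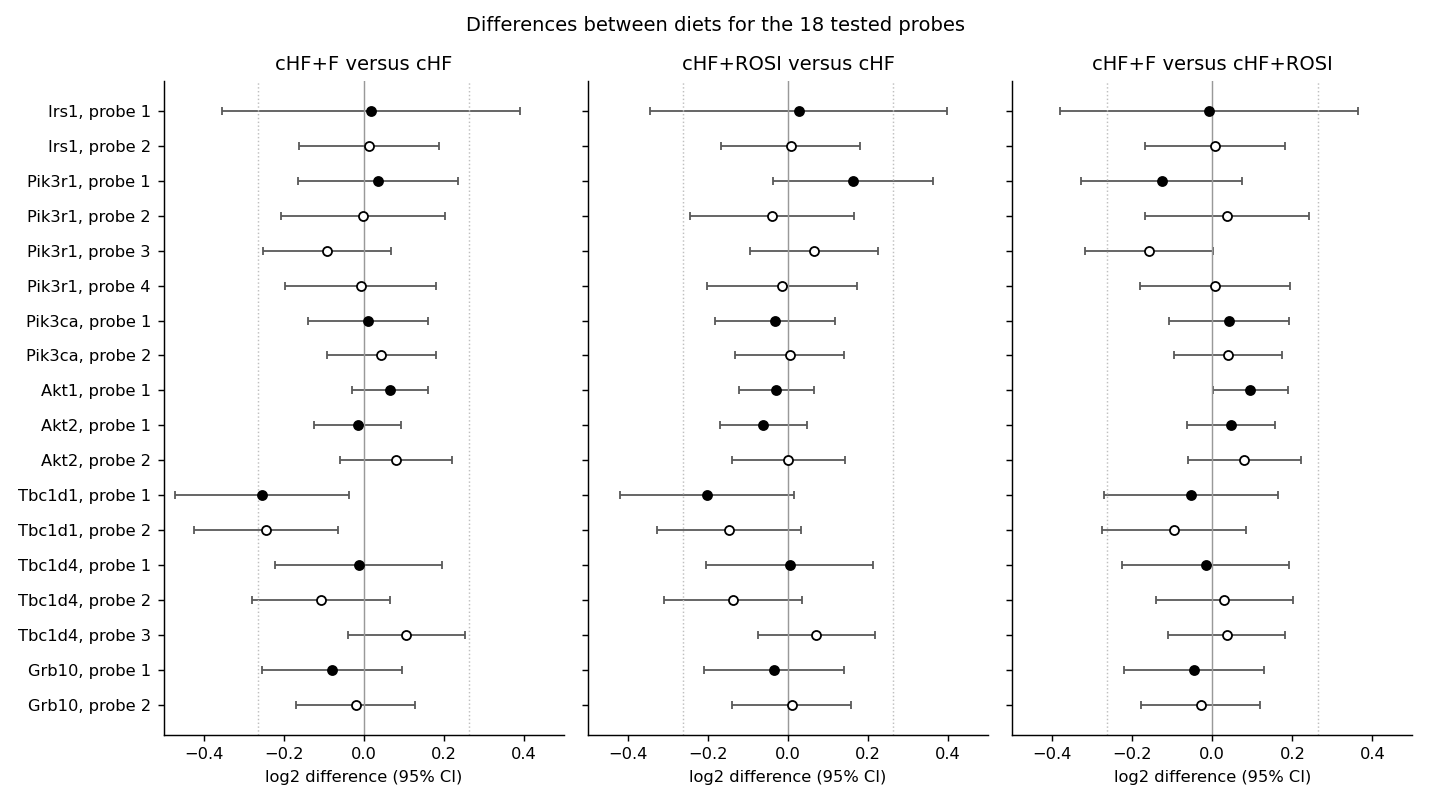
Log2 difference between diets with its 95% confidence interval for each of the 18 tested probes, filled for the brightest probe of a gene. The dotted lines mark a 1.2-fold change in either direction. As processed here, the intervals of both Tbc1d1 probes for cHF+F versus cHF and that of Akt1 for cHF+F versus cHF+ROSI leave out 0, and no point lies beyond a dotted line.

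The rest of the pathway was read from a list of 74 further genes, of which 72 had a probe and 64 were bright enough. In limma 0 of 64 were called in any comparison. At an unadjusted p under 0.05, 8 of 64 passed for cHF+F versus cHF (12.5%, against 7.41% of all genes; 5 higher and 3 lower), 4 for cHF+ROSI versus cHF (6.25%, against 5.01%; 1 higher and 3 lower) and 4 for cHF+F versus cHF+ROSI (6.25%, against 4.83%; all 4 higher). The median differences were 0.0043, -0.020 and 0.031. Among the 10 tested brakes on the receptor and on PI3K, Trib3, a pseudokinase that binds AKT, had the largest value, 0.64 (SE 0.17, unadjusted p = 0.000828) for cHF+F versus cHF and 0.49 (unadjusted p = 0.00765) against cHF+ROSI, and it had been singled out by the study on these same arrays. Socs3, a feedback inhibitor of cytokine and insulin signalling, stood at -0.47 (SE 0.13, unadjusted p = 0.00134) for cHF+F and -0.29 (unadjusted p = 0.0363) for cHF+ROSI, each relative to cHF. The Socs3 ratios ran from -0.34 to 0.47 in the cHF mice and from -0.79 to -0.13 in the cHF+F mice, so that the groups overlapped. Enpp1, a membrane glycoprotein that inhibits the receptor, stood at -0.15 for cHF+F versus cHF. The adjusted p was 0.301 for Trib3, 0.385 for Socs3 and 0.640 for Enpp1 in limma.

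The mTOR branch held 9 tested genes. Mtor, the kinase itself, was lower in the cHF+ROSI than in the cHF mice at an unadjusted p of 0.0154 (-0.14, SE 0.055) and higher in the cHF+F than in the cHF+ROSI mice (0.19, unadjusted p = 0.00169). Rictor, a subunit of the complex that phosphorylates AKT, and Rps6kb1, the S6 kinase, stood at 0.15 and 0.15 in that last comparison. Rheb, the GTPase that activates mTOR, stood at 0.12 for cHF+ROSI versus cHF. Of 17 genes of GLUT4 traffic, 2 had an unadjusted p under 0.05 in limma for cHF+F versus cHF (11.8%, against 7.41% of all genes). Rab10, a Rab protein on which the TBC1D1 and TBC1D4 GTPase-activating proteins act, was at 0.16 (SE 0.059). Stxbp3, a regulator of vesicle fusion, was at 0.15 (SE 0.065). The transporter gene Slc2a4 itself stood at 0.12 (unadjusted p = 0.0943) and 0.067 (unadjusted p = 0.355) in the cHF+F and cHF+ROSI mice. In the Ras and MAP kinase branch, Hras (0.20) and Map2k1 (0.13) were on the higher side and Mapk3 (-0.13) on the lower side for cHF+F versus cHF, and Mapk3 stood at -0.16 for cHF+ROSI. None of the 9 receptor-level adaptors, the 10 PI3K and downstream kinases or the single tested FOXO factor, Foxo1, passed the unadjusted threshold in any comparison.

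**Figure D5:**
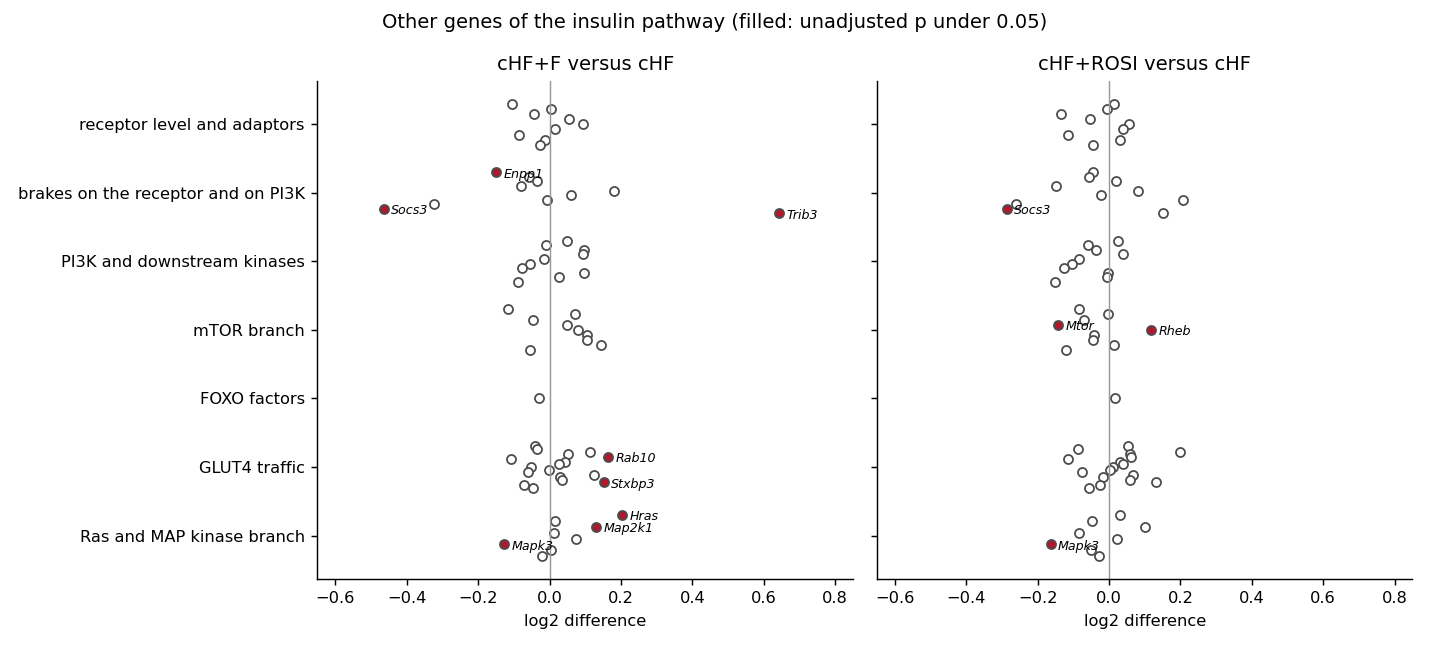
Log2 difference from cHF for the 64 tested genes of the wider insulin pathway, 1 circle per gene, grouped by role. Filled and named circles have an unadjusted p under 0.05, and none passed the correction. Trib3 and Socs3 lie farthest from 0 for cHF+F versus cHF.

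Across all 24 arrays, without regard to diet, the genes with the pattern most like Tbc1d1 were Otub2 (Pearson correlation 0.820) and Vldlr (0.779) among 10680 genes compared. For Akt1 they were Arfgef2 and Krtap19-1, for Akt2 Nt5m and LOC629657, and for Irs1 Ddx3x and Nfil3. For Pik3ca they were 5830417I10Rik and Auts2, and for Grb10 Gramd1b and Hpn. These correlations lay between 0.762 and 0.858. They are maxima over many genes, and all values of an array share its slide and labelling, so they are given as a description.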

How the data were processed

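Gastrocnemius RNA of 24 mice (8 each of cHF, cHF+F and cHF+ROSI, as the labels give them) was hybridized in Cy5 to Agilent arrays with 45018 spots, 43379 of them not controls, against a pool in Cy3, with no dye swap. Per the file headers, the deposited scanner files hold spot and background intensity of each channel, quantified by Feature Extraction version 10.5.1.1, while the labels name version 10.5.5.1. The authors also deposited a table of log2 values normalized against Cy3 after removal of dim spots, with 20721 rows for 19387 probes and a median of 8.99 in every column. Its 16 columns of cHF and cHF+F served as an alternative, and 8 columns of another diet were not used. 

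The background of median signals was corrected by normexp (offset 50). The 48 spots on 8 arrays that lay over 20 units below their local background were left out, because with them the normexp fit drew dim probes of several arrays toward a ratio of 0. Ratios of Cy5 over Cy3 were normalized by loess (span 0.3) within each array, and spots of a probe were averaged. Flagged spots were missing, a probe needed 4 unflagged arrays per group, and probes with a mean signal of at least 2 times background in both channels were tested. In place of depth, the signal over background is given, and the number of arrays limits the precision. The groups were compared in limma version 3.58.1 (R version 4.3.3, data.table version 1.17.8) in one two-sided model, with Benjamini-Hochberg adjustment over all 15958 probes. Counts at an unadjusted p under 0.05 were part of the plan, and no probe passed at an adjusted p under 0.05. The code was tested on simulated data. A gene's value is that of its brightest probe. In the Cy3 and Cy5 single-channel fits the signal was quantile-normalized between arrays. Slide and replicate number coincided: deviations of arrays with the same number correlated at -0.10 to 0.65 (median 0.22, 24 pairs), over 0.1 in 16 of 24. Probe positions are those of the files (mm8, NCBI build 36), for which no annotation of exons was used here. The genes, the pathway and marker lists and the rules (all members, those of the pathway list with an unadjusted p under 0.05 and the 2 most alike genes are named) were chosen with earlier results of these data known. The most alike genes of Pik3r1 and Tbc1d4 are not reported here. Alternatives were other background corrections, mean or processed signals, a loess span of 0.1, median centring, Cy5 alone, no filter or one of 3 times background, the slide as a block, array weights, the methods' t-test, the mean over probes, the authors' table and leaving out each array. Leaving out slides 1 to 3 and fitting normexp on all spots were added after seeing the data.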

Additional observations from a re-analysis of the deposited data

Results flagged for a closer look

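In 4 of 24 groups (8 genes in 3 diets) a single mouse stood apart from the other 7 by Dixon's test at its 95% level, where chance flags about 1 group in 20. For Akt1, cHF+F replicate 2 was at a log2 ratio of 0.21, and the next highest of its group at 0.081. For Akt2, cHF+F replicate 1 was at 0.12, the only value above the pool, with the next at -0.13. For Pik3ca the same mouse was at 0.27 and the next at 0.10. For Tbc1d4, cHF+ROSI replicate 1 was at -0.45 and the next lowest at -0.11. All 4 values came from the dimmer slides 1 to 3, as 3 were on slide 1 and 1 on slide 2. No cause of these values was tested.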

How the results depend on the processing

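The count of 0 called genes held in each comparison under each alternative that was run and without any 1 array. The number of genes at an unadjusted p under 0.05 did not. For cHF+F versus cHF it was 0 instead of 1 with median centring, Cy5 alone or the authors' table, and 0 to 1 when 1 array was left out, with 0 without cHF replicate 6 or cHF+F replicate 4. The authors' table was used for this comparison alone, since no column of it matched cHF+ROSI. For cHF+F versus cHF+ROSI it was 0 instead of 1 with mean spot signals, median centring, Cy5 alone, no filter, array weights, normexp fitted on all spots or slides 1 to 3 left out. There the Akt1 difference was 0.024 with normexp on all spots and 0.24 with median centring, against 0.094 as reported. Leaving out 1 array gave 0 to 1, and 0 in 14 of 24 cases: cHF replicates 2, 4, 6, 7 and 8, cHF+F replicates 2, 3, 4, 5 and 7, and cHF+ROSI replicates 1, 2, 4 and 8. No cHF mouse enters this comparison, so without a cHF array the Akt1 difference stayed at 0.094. Only the estimate of the spread, which the 3 groups share, changed there. For cHF+ROSI versus cHF it was 1 instead of 0 with no filter (Insr, by its dim probe), array weights (Pik3r1), slides 1 to 3 left out (Grb10) or normexp fitted on all spots (Tbc1d1), and 0 to 2 when 1 array was left out, namely 1 without cHF replicate 1 or 5 or cHF+ROSI replicate 5 or 7, and 2 without cHF+ROSI replicate 2 (Pik3r1 and Tbc1d1). The cause of these changes was not tested.

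With the slide, which is also the replicate number, as a block, the count for cHF+ROSI versus cHF was 1 instead of 0 (Pik3r1), and the counts for the other comparisons were 1 each, as without it. Dimmer probes of Pik3r1 and Tbc1d4 also had an unadjusted p under 0.05 there. Over all probes that fit called 8, 0 and 0, and 12.6%, 10.2% and 9.61% of probes had an unadjusted p under 0.05. In 16 of 24 cases an array correlated best with its own number. Of 381 values of single probes and genes under the alternatives, 36 had the opposite sign, and of 648 with 1 array left out, 46, none of them called. Part of these values could not change sign. The block, the t-test and the filters leave an estimate as it is, and so does leaving out an array of the diet outside the comparison. By the signal over background, 4 of 22 probes, the receptor's among them, could not be tested.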

Other observations

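With the brightness filter removed, the second Akt1 probe differed by -0.13 (SE 0.068) for cHF+F versus cHF, with an unadjusted p of 0.0707 and an adjusted p of 0.626 in limma. That is opposite in sign to the 0.066 of the bright Akt1 probe 8.43 kb away. The remaining Grb10 probe stood at 0.031 and -0.037 for cHF+F and cHF+ROSI versus cHF, and the dimmest Tbc1d4 probe at -0.063 and -0.038. These 3 probes had mean signals under 2 times background in Cy3.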
